A study of Mus musculus with 2 samples.

Results

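The cells described here are CD8 T cells from B16F10 melanoma that held Tcf7 transcripts, the mRNA of the transcription factor TCF1, and no count of Pdcd1, the gene of the inhibitory receptor PD-1. They were chosen by transcript counts per barcode: at least 5 counts of Cd8a or Cd8b1, under 5 of Cd4, Csf1r and Adgre1, under 10 of Mlana, at least 5 of Tcf7, 0 of Pdcd1, and under 5 of Havcr2 and of each of Klra1, Klra6, Klra7 and Klra9. This gave 396 cells, called members below, of 11318 barcodes that passed the quality limits of at least 500 genes and at most 25% mitochondrial counts. They made up 3.5% of those barcodes and 9.59% of the 4131 CD8-gated cells (exact binomial 95% interval 8.71% to 10.5%).

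The mice carried B16F10 tumours, a mouse melanoma line injected under the skin at 1000000 cells per mouse. Tumours were taken at day 14, and cells bearing CD3 were enriched with magnetic beads after a Percoll step. Wild-type cells and cells with Nr4a knockout (Nr4a1/2 deletion in the series title) were marked with hashtag antibodies and pooled in 1 BD Rhapsody capture, loaded at about 20000 cells and amplified by TAS-Seq, a method for bead-bound cDNA. The labels do not say which hashtag marks which genotype, nor the allele design, Cre driver, strain or age of the mice, so wild-type and knockout cells cannot be told apart in any value below. There was 1 capture, and the classes compared were chosen by transcript counts of the same cells, so no test was made between them. Values within single hashtags are given beside the pooled ones where enough cells were called. Intervals of CPM cover the counting of deposited counts only. These were treated as reads, so the intervals can be narrower than the counting error of molecules. Intervals of shares cover the counting of cells only. A difference is described by its size and by the share of cells.

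As background, TCF1 is the factor that naive, memory and stem-like exhausted CD8 T cells share, while PD-1 is induced by antigen and kept in exhausted cells. Naive and central memory T cells recirculate: CCR7 brings them into lymph nodes, the sphingosine receptor S1PR1 lets them leave, and the factor KLF2 maintains S1pr1 transcription. In tumours, Tcf7 cells with PD-1 are known as precursors of the exhausted pool that expresses TIM-3 (Havcr2).

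The mRNA table held 629041564 counts of 27635 genes in 12016 barcodes, with 4138 to 892142 counts per barcode. The members had a median of 20681 counts and 1741 genes, against 44544 counts in the precursor exhausted cells defined below, 16669.5 in the Tcf7-negative cells without Pdcd1 and 23642 in the Ly49-positive Tcf7 cells. At least 3 of 6 T cell receptor and CD3 genes were present, at 5 or more counts, in 82.1% of the members and 0.974% of the melanoma barcodes. Of the barcodes in the mRNA table, 11808 were also listed in the hashtag table. No doublet caller was run: a marker of B cells, macrophages, dendritic cells, neutrophils or melanoma reached 5 counts in 45.7% of the members, 69.3% of the precursor exhausted cells, 46.0% of the Tcf7-negative cells and 53.0% of the Ly49-positive cells. Cd79a and Ms4a1, which define B cells, were at 0 in the members, although Ighm was present in 11.9% of them.

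The lack of a Pdcd1 count depended on depth. Among 605 Tcf7 CD8 cells without Havcr2 and the Klra genes, 396 (65.5%) had no Pdcd1 count, 72 had 1 to 4 counts and 137 had at least 5. The share without a count was 86.0% (interval 78.8% to 91.5%) below 15000 total counts, 75.7% from 15000 to 30000, 43.0% from 30000 to 60000 and 23.4% (13.8% to 35.7%) at 60000 or more. Among Havcr2-positive CD8 cells, which hold Pdcd1 widely, the corresponding shares were 49.2%, 32.4%, 16.2% and 7.16%. In every depth range the Tcf7 cells lacked Pdcd1 more often, and cells that transcribed Pdcd1 below detection cannot be told apart from cells that did not.

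**Figure D1:**
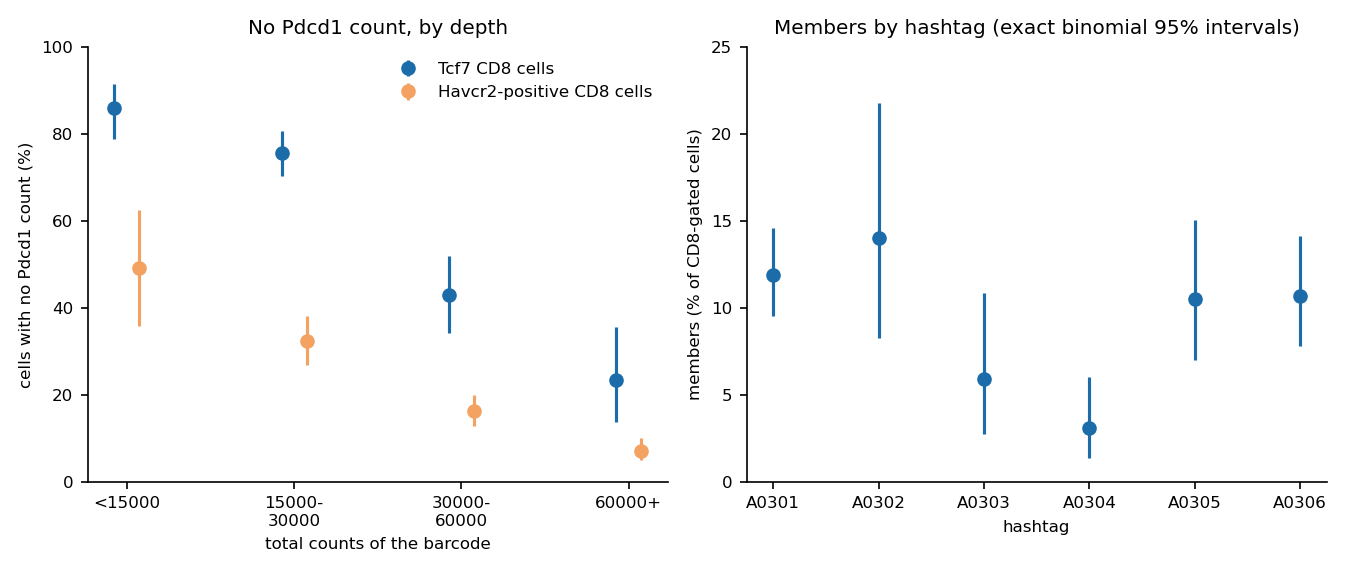
Left, the percentage of cells with no Pdcd1 count (y axis) by total counts of the barcode (x axis), for Tcf7 CD8 cells (blue) and Havcr2-positive CD8 cells (orange). Right, members as a percentage of CD8-gated cells for each of 6 hashtags. Points are shares and bars are exact binomial 95% intervals. The share without Pdcd1 falls from 86.0% to 23.4% with depth in the Tcf7 cells, and the hashtag shares run from 3.11% to 14.04%.

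The markers given for this cell type besides Tcf7 were Klf2, S1pr1, Lef1 and Ccr7. At least 1 of these 4 was present in 79.5% of the members (interval 75.2% to 83.4%), at least 5 counts being needed, and 20.5% held none of them. The cells differed in how many of the 4 they held: 36.4% held 1, 25% held 2, 12.9% held 3 and 5.30% held all 4. Among genes of naive T cells other than these markers, Nsg2 was present in 18.4% of the members, Dapl1 in 10.1% and Igfbp4 in 4.55%. The 4 markers were present in 33.8% to 40.2% of the members each (values below). Among genes of antigen-experienced cells, Nkg7, a cytotoxic granule protein, was present in 67.7%, Ly6c2, a surface protein of memory CD8 cells, in 66.7%, Ccl5, a chemokine of memory and effector cells, in 62.1%, and Il2rb, a chain of the interleukin-2 and interleukin-15 receptors, in 56.6%. Others of that kind were less frequent: Cd44, an adhesion receptor, was present in 26.8%, Id2 in 27.3% and Cxcr3, a chemokine receptor of effector cells, in 23.99%. The markers of the label were thus not detected in every cell, and Nkg7 and Ccl5 were each present in most members.

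The same transcripts were counted in barcodes of other cell types. Ccl5 was present in 40.4% of the melanoma barcodes, which had a median of 153665 counts, but at 135 CPM (counts scaled to a class total of 1000000), against 1938 CPM in the members. After each barcode was thinned to 10000 counts, with presence at 2 counts, the shares for Ccl5 were 64.2% of 366 members and 21.4% of the melanoma barcodes. For Nkg7 they were 72.1% and 2.16%, for Ly6c2 71.6% and 1.85%, and for Il2rb 62.3% and 1.85%. For Ccr7 the thinned shares were 41.8% and 0.206%, for S1pr1 44.0% and 0.618%, for Lef1 37.4% and 1.03%, and for Klf2 34.4% and 4.33%. The melanoma shares of these 8 genes were all below the members' shares, whereas macrophages held Klf2 in 29.7% and Ly6c2 in 22% of thinned barcodes.

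Among the genes of recirculation, S1pr1 was present in 40.2% of the members at 282 CPM (exact Poisson 95% interval 271 to 293), and its highest count in a cell was 85. Ccr7 was present in 37.6% at 465 CPM, with up to 196 counts in a cell. Klf2 was present in 33.8% at 318 CPM. These values rest on many cells: the 10 members with the most counts held 19.6% of the S1pr1 counts, 27.1% of the Ccr7 counts and 21.8% of the Klf2 counts.

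Transcription factors and the interleukin-7 receptor followed. Satb1, a chromatin organiser of T cells, was present in 54.0% of the members at 612 CPM, and Lef1, the partner of TCF1, in 34.6% at 234 CPM. Il7r, which conveys the survival signal of interleukin-7, was present in 54.0% at 630 CPM. By contrast, 70.2% of the members held none of Gzmb, Ccl3, Ccl4, Ifng and Prf1, and 7.32% held 2 or more of these effector genes.

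**Figure D2:**
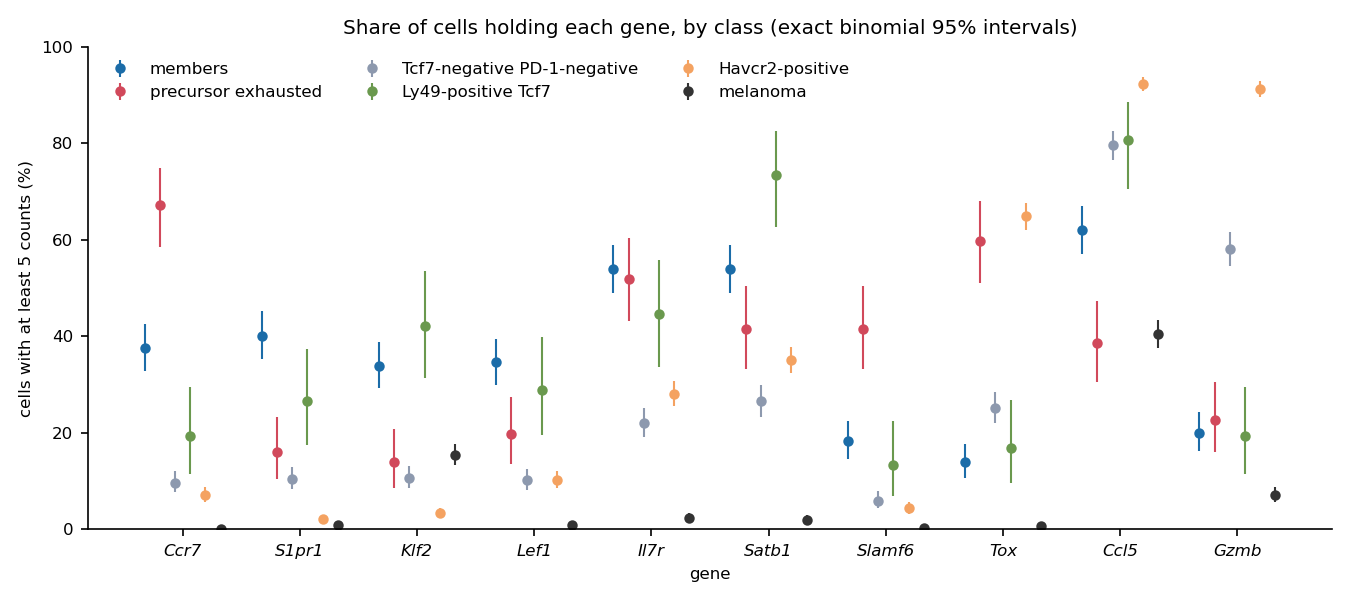
Percentage of cells with at least 5 counts (y axis) of 10 genes (x axis) in the members, 4 other CD8 classes and melanoma barcodes. Points are shares and bars are exact binomial 95% intervals. The members hold S1pr1 in 40.2% and Klf2 in 33.8% of cells, against 16.1% and 13.9% of the precursor exhausted cells.

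In GRCm38.p6, S1pr1 lies at chr3:115710433-115715055, Klf2 at chr8:72319062-72321654, Lef1 at chr3:131110297-131224357, Satb1 at chr17:51736187-51833290, Ccr7 at chr11:99144199-99155077 and Il7r at chr15:9506159-9529941, all annotated as protein-coding. The promoter windows of Klf2, Satb1 and Lef1 are shown because these factor genes were higher in the members than in both the precursor exhausted and the Tcf7-negative cells (below). They come from RefSeq on GRCm38.p6, run from 250 bases before to 50 after the start of transcription and are written on the strand of the gene: chr8:72318812-72319111 (+), chr17:51833241-51833540 (−, the first of 5 windows listed) and chr3:131110047-131110346 (+, the first of 4). Capitals mark CACCC or GGGTG, the core bound by KLF factors read on both strands.
Klf2: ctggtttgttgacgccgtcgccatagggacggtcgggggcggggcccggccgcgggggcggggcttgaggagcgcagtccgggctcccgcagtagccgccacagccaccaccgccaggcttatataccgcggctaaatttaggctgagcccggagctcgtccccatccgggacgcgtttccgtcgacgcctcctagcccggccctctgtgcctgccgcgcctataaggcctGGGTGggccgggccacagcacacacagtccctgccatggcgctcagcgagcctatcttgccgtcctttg
Satb1: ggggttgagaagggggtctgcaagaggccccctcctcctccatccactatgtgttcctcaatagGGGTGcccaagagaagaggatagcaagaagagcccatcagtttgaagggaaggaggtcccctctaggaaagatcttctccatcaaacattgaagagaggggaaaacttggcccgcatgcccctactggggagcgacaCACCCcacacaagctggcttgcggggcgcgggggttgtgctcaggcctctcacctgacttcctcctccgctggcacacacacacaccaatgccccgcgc
Lef1: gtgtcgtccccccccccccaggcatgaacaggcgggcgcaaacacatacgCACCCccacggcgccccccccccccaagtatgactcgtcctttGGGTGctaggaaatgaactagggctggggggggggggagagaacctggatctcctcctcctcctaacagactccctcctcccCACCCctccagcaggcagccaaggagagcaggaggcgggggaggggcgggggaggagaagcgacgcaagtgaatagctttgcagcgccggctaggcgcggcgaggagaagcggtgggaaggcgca
The Klf2 window held 1 match, Satb1 2 and Lef1 3. The window of Il7r, also called higher in both comparisons but not printed, held 0. CACCC or GGGTG occurs in 56.7% of 27025 promoter windows, 1 per gene symbol, so a match is common. The TCF/LEF cores CTTTGA and CTTTGT, and their reverse complements TCAAAG and ACAAAG, occur in 31.3% of the windows and were in none of the 4 windows. These matches describe letters, and binding was not measured.

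Cells just outside and just inside the limits of the gate are described here without a test. With 0 Pdcd1 counts, 128 cells with 1 to 4 Tcf7 counts held Klf2 at 131 CPM and Gzmb at 1025 CPM, while the 118 members with 5 to 9 Tcf7 counts held them at 388 and 590 CPM. The 137 members with 20 or more Tcf7 counts held Klf2 at 276 CPM and Gzmb at 265 CPM. On the other limit, the 72 cells with 1 to 4 Pdcd1 counts held S1pr1 at 112 CPM, Klf2 at 46.5 CPM and Ccr7 at 611 CPM. Against the values over all members, Ccr7 was not lower outside the Pdcd1 limit, and S1pr1 and Klf2 were.

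The first comparison set the members against 137 precursor exhausted cells, gated alike except for at least 5 Pdcd1 counts. Klf2, S1pr1, Klf3, Satb1 and Lef1 were higher in the members, and Tox and 17 of 20 cell cycle genes were lower. A gene was examined at a mean of at least 20 CPM and with 5 counts in at least 10% of either group, and was called higher or lower at a log2 ratio of (CPM + 5) of at least 1 in size with the share of cells moving the same way. Of 5202 genes, 69 were higher in the members (1.33%) and 279 were lower (5.36%), 6.69% in either direction. The genes of the gate were left out of these counts.

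The recirculation list had 4 of 13 examined genes higher and 0 lower, with a median log2 ratio of 0.59 against −0.07 for all examined genes. Klf2 was at 318 CPM in the members and 50.6 CPM (45.5 to 56.2) in the precursor exhausted cells, a log2 ratio of 2.54, and was present in 33.8% and 13.9% of the cells. S1pr1 had a log2 ratio of 2.22, with 282 against 56.4 CPM. Klf3, a factor related to KLF2, had a log2 ratio of 2.16. Ccr7 did not follow: it was at 465 CPM in the members and 647 CPM in the precursor exhausted cells, a log2 ratio of −0.47. It was present in 37.6% and 67.2% of the cells, shares not matched for depth. In the 99 members with the most counts the share for Ccr7 was 55.6%.

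Of 11 examined progenitor transcription factors, 2 were higher and 0 lower, namely Satb1 at 2.02 and Lef1 at 1.61. Of 11 homeostatic cytokine receptors, 3 were higher and 0 lower: Il7r at 1.19, Il4ra, the interleukin-4 receptor, at 1.26, and Ifngr1, a chain of the interferon-gamma receptor, at 1.04. Without cells holding Mki67 or Top2a, Il7r came to 0.53, Ifngr1 to 0.66 and Il4ra to 1.05, and Il7r was present in 54.0% and 51.8% of all cells. Of 12 quiescence genes 2 were higher and 0 lower, Klf2 and Txnip, a regulator of glucose uptake, at 1.19, and without the cycling cells Txnip came to 0.60. Cd69, which holds S1PR1 inside the cell, was also higher, with 342 against 81.5 CPM and a log2 ratio of 2.01. Fam241a had a log2 ratio of 1.51, Elmsan1 1.5 and Grap2, an adaptor of T cell receptor signalling, 1.42. These 3 depended on the setting. Without barcodes holding another lineage's marker, Elmsan1 came to 0.35, Grap2 to 0.65 and Fam241a to 1.38. After thinning Fam241a came to 0.93.

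Other lists held similar shares of higher genes. Of 10 examined genes of tissue residence and tumour homing, 3 were higher and 0 lower, with a median of 0.33. These included Cd69, also a marker of tissue residence, and Ccr2, a chemokine receptor, at 1.59. Of 9 interferon-stimulated genes, 3 were higher and 0 lower, with a median of 0.61, namely Ifi208 at 2.04, the interferon regulator Irf7 at 1.68 and Gbp2, a GTPase, at 1.05. Of 15 genes of glycolysis and hypoxia, 0 were higher and 3 lower, Slc2a3, a glucose transporter, and the enzymes Tpi1 and Pgk1, with ratios from −1.11 to −1.22.

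Of 10 examined genes of the precursor exhausted list, 4 were lower in the members and 0 higher. Tox, a factor of exhaustion, was at 111 against 301.5 CPM, in 13.9% and 59.9% of the cells, a log2 ratio of −1.40. These shares were not matched for depth: Tox was present in 30.3% of the 99 members with the most counts. After thinning to 10000 counts its log2 ratio was −1.80. Xcl1, a chemokine for cross-presenting dendritic cells, had −1.64, Tnfrsf4, the OX40 receptor, −1.81, and Cd83 −1.46. Without barcodes holding another lineage's marker, Cd83 came to 0.23, Xcl1 to −1.29 and Tnfrsf4 to −1.94. Without cells holding Mki67 or Top2a they came to −0.25, −1.19 and −1.77. Slamf6, a surface marker of these precursors, stayed within the limit at −0.59, with 118 against 181 CPM. Among 6 inhibitory receptors, Lag3 at −1.37 and Cd160 at −1.01 were lower. Of the 9 examined naive-related genes, Dapl1 was lower at −1.71 and 2, among them Lef1, were higher.

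The effector genes were mixed. Of 13 examined, Ccl5 was higher in the members at 1.71, with 1938 against 589 CPM, and Prf1 (perforin), Xcl1 and Lgals1 were lower at −1.21, −1.64 and −1.01. Gzmb was at 345 against 218 CPM, a log2 ratio of 0.65 that did not pass the limit. Its pooled value was not that of single hashtags, in which the ratio was 2.80 for A0301, 3.17 for A0305 and 1.73 for A0306, and 10 cells held 44.4% of the members' Gzmb counts.

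Cell cycle genes made up most of the named genes that were lower. Of 20 proliferation genes, 17 were lower and 0 higher, with a median log2 ratio of −1.80. Top2a, a topoisomerase of dividing cells, was at 129 against 548 CPM, Ccna2, a cyclin, had a log2 ratio of −2.65 and Cdk1, a cell cycle kinase, −2.11. Mki67 or Top2a was present in 10.6% of the members (interval 7.75% to 14.1%), 46.0% of the precursor exhausted cells and 50.8% of the Havcr2-positive cells. Tpx2, Kif15, Pclaf, Cdca3, Tacc3 and Ccnb2, also named as lower, are cell cycle genes as well. The remaining named gene that was lower was Nrgn, with 25.4 against 211 CPM and a log2 ratio of −2.83. All 14 ribosomal protein genes stayed within the limit.

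Depth and cycling cells moved with this comparison. The members had a median of 20681 counts and the precursor exhausted cells 44544, and the shares of cells given were not thinned. In the 99 members with the most counts (median 35271), S1pr1 was at 152 CPM, Klf2 at 200 CPM and Il7r at 321 CPM. In the shallower groups of 99 members these genes were at 342 to 420, 379 to 495 and 782 to 954 CPM. Without cells holding Mki67 or Top2a (354 members against 74 cells), Klf2 remained at 1.95, S1pr1 at 2.06, Satb1 at 1.45 and Lef1 at 2.15, whereas Ccl5 came to 0.78, below the limit. Of the 20 named genes 10 kept their call in that setting, and of all 348 calls 105 were shared and 40 had the other sign. Between barcodes of 15000 to 60000 counts (270 against 86, a range chosen after seeing the data), Klf2 was at 2.63, S1pr1 at 2.43, Ccl5 at 0.91, Il7r at 0.72, Ifngr1 at 0.88 and Txnip at 0.51. In that range 14 of the 20 named genes kept their call and 164 of the 348 calls were shared. Without barcodes holding another lineage's marker, 16 named genes kept their call, 159 calls were shared and 10 had the other sign.

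**Figure D3:**
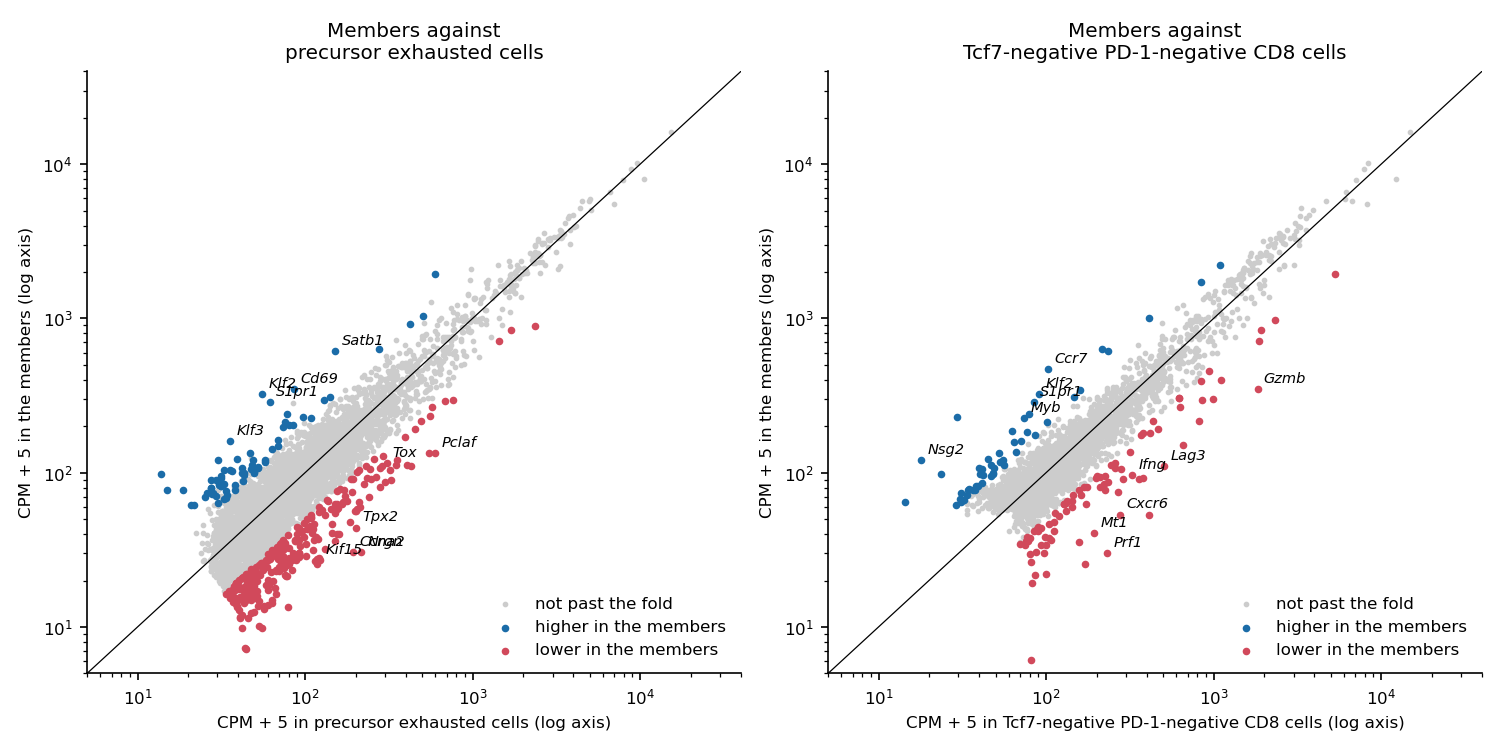
CPM + 5 of each examined gene in the members (y axis, log scale) against the precursor exhausted cells (left) and the Tcf7-negative cells without Pdcd1 (right) (x axes, log scale). Blue points were called higher and red points lower in the members, grey points neither, and the line marks equal values. Klf2, S1pr1 and Satb1 lie above the line on the left, and Gzmb and Prf1 lie below it on the right.

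The second comparison kept Pdcd1 at 0 and changed Tcf7: the members were set against 748 CD8 cells with 0 Tcf7 counts, 0 Pdcd1 counts and the same other limits. The members were higher in naive-related and recirculation genes and lower in nearly the whole effector list. Of 3109 examined genes, 50 were higher (1.61%) and 87 lower (2.8%), 4.41% in either direction. The member cells are the same as in the first comparison, so the comparisons are not independent.

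Of 8 examined naive-related genes, 6 were higher and 0 lower, with a median log2 ratio of 1.88 against −0.05 for all examined genes. Nsg2 had a log2 ratio of 2.75, Ccr7 2.19, Dapl1 2.18, Lef1 1.59 and Actn1, an actin cross-linker, 1.31. Of 12 recirculation genes, 5 were higher and 0 lower: besides Ccr7 these included Klf2 at 1.82, S1pr1 at 1.77 and Klf3 at 1.18. Myb, a factor of stem-like CD8 cells, was at 220 against 69.2 CPM, a log2 ratio of 1.60, and Satb1 had 1.39. Il7r was present in 54.0% against 21.9% of the cells, with a log2 ratio of 1.55. Slamf6 was higher at 1.46, and Cmah and Fam241a had log2 ratios of 1.56 and 1.34.

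Of 13 cytotoxic and effector genes, 12 were lower in the members and 0 higher, with a median of −1.44. Gzmb (granzyme B) was at 345 against 1823 CPM, in 19.9% and 58.2% of the cells, a log2 ratio of −2.39. Prf1 had −2.94, Ccl3 −2.95, Ccl4 −2.12 and Ifng (interferon gamma) −1.76. Ccl5 and Nkg7 were lower at −1.44 and −1.24, although most members held them. Of 20 memory-related genes, 6 were lower and 0 higher, among them Id2, a regulator of effector differentiation, at −1.51. The 3 lower genes of 5 examined inhibitory receptors were Lag3 at −2.19, Ctla4 at −1.10 and Entpd1 (CD39) at −3.75. Entpd1 had 10 counts in all members together, so its ratio rests on a sum below the floor of 30 counts.

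Of 16 exhaustion factors, 4 were lower and 0 higher: Tox at −1.16, Id2, Irf8 at −1.67 and Rbpj, the Notch effector, at −1.40. Cxcr6, a receptor of tumour-resident cells, was at 48.4 against 272 CPM, a log2 ratio of −2.38. Of 9 examined residence and homing genes 3 were lower and 0 higher, among them Cxcr6 and Ccr2, the latter at −1.25. Tnfrsf9 (4-1BB) had −2.02, Mt1, a metallothionein, −2.26, Fgl2 −1.97 and Rgs16 −1.85. Of 9 proliferation genes none passed the limit in either direction, with a median of −0.63, and Mki67 or Top2a was present in 20.5% of the Tcf7-negative cells. The 14 ribosomal protein genes had a median of 0.49, and none passed the limit. At 15000 to 60000 counts all 20 named genes of this comparison kept their call.

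The third comparison set the members against 83 Tcf7 CD8 cells without Pdcd1 that held at least 5 counts of Klra1, Klra6, Klra7 or Klra9, which encode Ly49 receptors. With 83 cells in the other class, the counts of calls in this comparison are given as values only, and no difference between the classes is read from them. Of 3604 examined genes, 59 were higher in the members (1.64%) and 77 lower (2.14%), 3.77% in either direction, with all Klra genes left out. Of 12 recirculation genes, Ccr7 alone was higher, at 465 against 181 CPM and a log2 ratio of 1.34, and 0 were lower. Klf2 was at 318 against 309.1 CPM and Satb1 at 612 against 714 CPM.

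Genes lower in the members included Klre1, a lectin-like receptor of natural killer cells, at −2.37, and Ikzf2, the factor Helios, at 123 against 525 CPM and −2.04. Xcl1 was lower at −1.99 and Cd7 at −1.71, and Spry2, Ctla2b, Kctd12, Ube2d1, Lyst and Itm2a had log2 ratios from −1.11 to −1.73. Within A0301, the 1 hashtag with enough cells of both classes (80 and 20), Lyst was at 0.09 and Itm2a at 1.26, against the pooled direction. Cd7 was at −0.59 there, and 18 of the 20 named genes kept the pooled direction. Cd8a without any Cd8b1 count was found in 11.4% of the members and 48.2% of the Ly49-positive cells. Higher in the members were Ifi27l2a, an interferon-stimulated gene, with 469 against 114 CPM and a log2 ratio of 2.00, and Ptms at 1.79. Urml, Rora, Ing1, Emp3, Man2a1 and Ms4a6c had log2 ratios from 1.04 to 1.30. Within A0301, Ptms was at 0.41, Rora at 0.34, Ing1 at 0.39, Man2a1 at 0.30, Ms4a6c at 0.97 and Ccr7 at 0.89, below the limit. Ifi27l2a was at 1.73 there, Urml at 2.02 and Emp3 at 1.05. Without the cells of hashtag A0301 the counts became 114 higher and 121 lower.

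**Figure D4:**
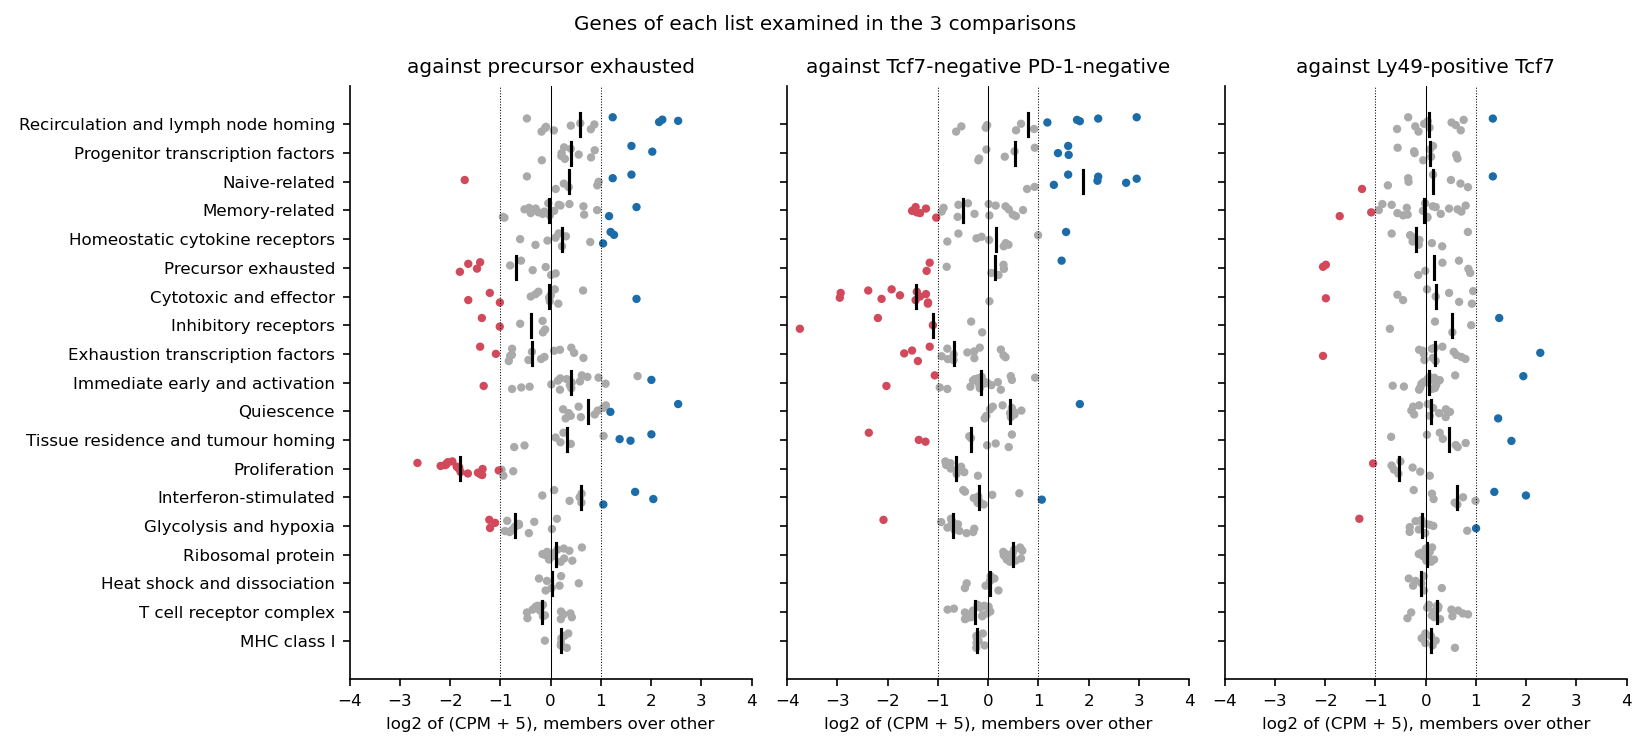
Log2 ratio of (CPM + 5), members over the other class (x axis), for every examined gene of 19 lists (y axis) in the 3 comparisons. Blue points were called higher in the members, red points lower, grey points neither. Black bars are list medians and dotted lines mark −1 and 1. Proliferation genes lie to the left in the first panel (17 of 20 lower) and effector genes in the second (12 of 13 lower).

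The Nr4a genes encode orphan nuclear receptors induced by T cell receptor signals. Wild-type and Nr4a knockout cells were pooled, and the share of each genotype within a class is not known. A difference between classes in these genes therefore cannot be told apart from a difference in genotype mix. Nr4a2 was present in 49.5% of the members at 756 CPM (738 to 773), below the 1289 CPM of the precursor exhausted cells, the 1331 CPM of the Tcf7-negative cells and the 1501 CPM of the Havcr2-positive cells. Nr4a1 was at 259 CPM in the members against 193, 291 and 203 CPM in those classes, and Nr4a3 at 306.4 against 269, 256 and 185 CPM. In the comparison with the precursor exhausted cells the log2 ratios were −0.77 for Nr4a2, 0.41 for Nr4a1 and 0.19 for Nr4a3, none past the limit.

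The members were not uniform. The presence of pairs of genes in the same cell is given as a description with no test. Ccl5 was present in 45.6% (37.5% to 54.0%) of the 149 members with Ccr7 and 72.1% (66.0% to 77.6%) of the 247 without. Gzmb was present in 27.6% of the members with Ccl5 and 7.33% of those without, and in 8.21% of those with Klf2 and 26.0% of those without. After thinning to 10000 counts, the values for Ccl5 by Ccr7 were 50.3% and 74.2%, and those for Gzmb by Ccl5 were 26.8% and 7.63%. The shares given for Gzmb by Klf2 were not matched for depth.

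S1pr1 divided the members along another set of genes. Lef1 was present in 48.4% (40.4% to 56.5%) of the 159 members with S1pr1 and 25.3% (19.9% to 31.4%) of the 237 without. Tox was present in 6.92% with and 18.6% without S1pr1, and Nr4a2 in 37.7% and 57.4%. Thinned to 10000 counts, the values were 6.21% and 20% for Tox and 39.1% and 61.0% for Nr4a2. Among the 55 members with Tox, Nr4a2 was present in 78.2% (65.0% to 88.2%), against 44.9% of the others. Ccr7 ran the other way from S1pr1 for Tox. Tox was present in 19.5% of the members with Ccr7 and 10.5% of those without, with intervals that overlapped. The shares given for Lef1 by S1pr1, Nr4a2 by Tox and Tox by Ccr7 were not matched for depth. Tox was present in 7.07% of the 99 members with the fewest counts and 30.3% of the 99 with the most. For Ccr7 these shares were 19.2% and 55.6%.

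**Figure D5:**
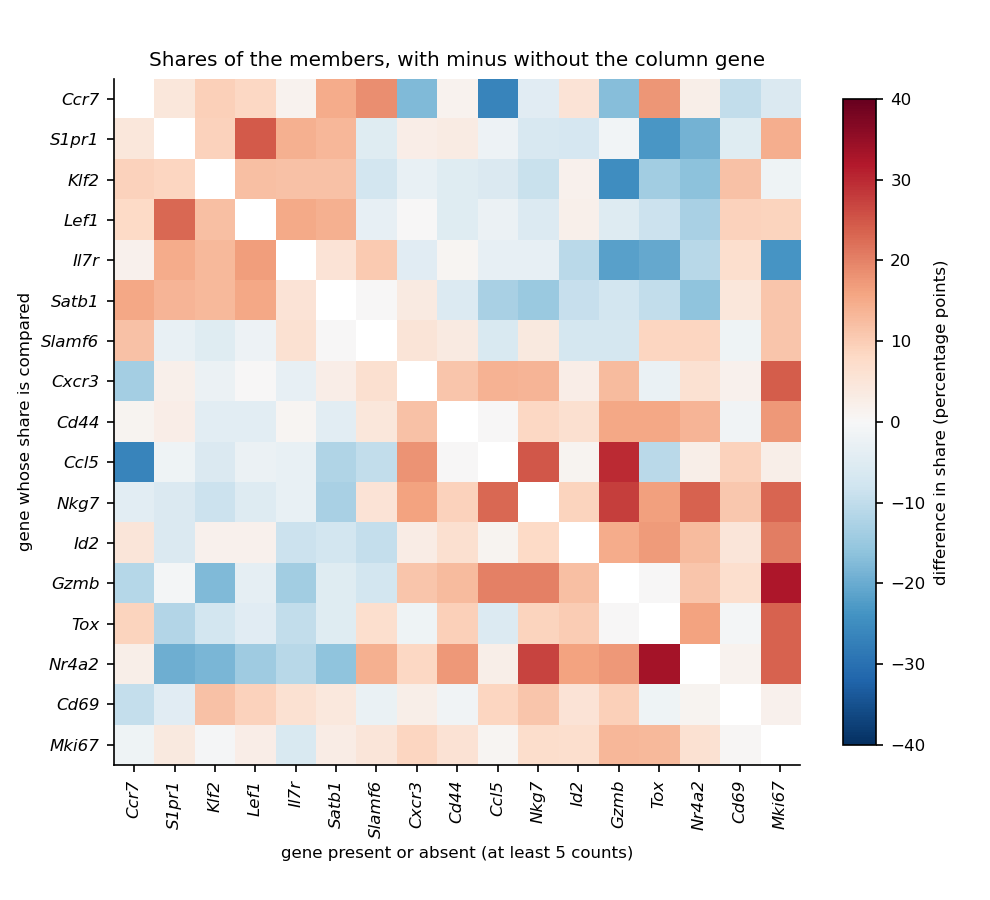
Difference in the share of the 396 members holding the row gene between members with and without the column gene (percentage points, colour scale), at 5 or more counts. Red marks a higher share with the column gene, blue a lower one, and the diagonal is blank. The shares were not matched for depth. Ccr7, S1pr1, Klf2, Lef1, Il7r and Satb1 are mostly red with each other, and Ccl5 with Ccr7 is blue (45.6% against 72.1%).

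Of the 396 members, 181 (45.7%) were called for 1 of the 6 hashtags A0301 to A0306 and 209 had no call. The rest were called for other columns of the 12 used in the call. The highest share of members among CD8-gated cells was that of hashtag A0302, at 14.04% (16 members), followed by A0301 at 11.9% (80), A0306 at 10.7% (42) and A0305 at 10.5% (26). It was 5.88% in A0303 (9 members) and 3.11% in A0304 (8), and the median over the hashtags was 10.6%. With another way of calling hashtags, by the highest scaled count, A0302 came to 11.02% and A0301 to 11.6%, so the order at the top depends on the call. The interval was 1.35% to 6.04% for A0304 and 9.55% to 14.6% for A0301. These intervals cover the counting of cells within 1 hashtag only. Each hashtag gives a single value, so no difference between hashtags is read from them. Since the genotype of a hashtag is not given, these are values of 6 hashtags of unknown group.

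Over the 4 hashtags with at least 10 members, S1pr1 was present in 42.5% to 56.3% of the members, Lef1 in 35.0% to 42.3%, Ccr7 in 25% to 47.5% and Klf2 in 18.8% to 46.2%. Ccl5 was present in 50% to 69.0% and Nkg7 in 50% to 93.8%. In A0303 (9 members) and A0304 (8), S1pr1 was present in 11.1% and 12.5% of the members and Lef1 in 44.4% and 25%. Ccr7 was present there in 22.2% and 25%, and Klf2 in 33.3% and 25%. Of the 209 members with no call, 37.3% held S1pr1. In the 3 hashtags with at least 10 cells in both groups, all 20 named genes of the comparison with precursor exhausted cells had the pooled direction. Klf2 ranged from 2.20 to 3.57 on the log2 scale, S1pr1 from 2.12 to 2.16 and Tox from −3.35 to −1.67. Against the Tcf7-negative cells the direction held for 20 of 20 named genes in 4 hashtags, and against the Ly49-positive cells for 18 of 20 in 1 hashtag.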

How the data were processed

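Both libraries of 1 capture, mRNA and hashtag, were analysed. Their deposited tables give, for each barcode, raw counts per gene or per hashtag. The submitters' processing notes name the build GRCm38, R 3.5.3, cutadapt 2.10 and Bowtie2 (2.3.4.1, 2.4.2) without saying what each did. No source used here says whether molecular identifiers were collapsed. The median non-zero count was 7 and 56.1% of non-zero counts were above 5, so counts were treated as reads and presence meant 5 or more. Counts of reads are not independent molecules, so the exact Poisson intervals (95%) can be narrower than the counting error of molecules. The Clopper-Pearson intervals (95%) cover the counting of cells only.

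Counts were summed per class and scaled to CPM. Named genes were the 10 highest and 10 lowest log2 ratios past the limit with 5 counts in at least 20% of the higher group, without Gm, Rik and variable-segment genes, and any gene of the fixed lists. A summed count under 30 was taken as the floor. Hashtags were called from a likelihood over 12 of 14 hashtag columns, at a gain of at least 3. The comparison was checked on simulated data. Some genes are not reported here. The members and lists were chosen with earlier results of these data known. Values were computed with pandas 2.3.3, scipy 1.17.1, numpy 2.4.6 and Python 3.11.15, and plots with matplotlib 3.10.9. Alternatives covered gates, filters, pseudocounts, TMM factors, thinning, other-lineage barcodes, cycling cells and hashtags.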

Additional observations from a re-analysis of the deposited data

How the results depend on the processing

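The members' share of CD8-gated cells, 9.59%, came to 12.7% with Tcf7 at 1 count or more, 6.73% with Tcf7 at 10 or more, 11.3% with Pdcd1 under 5, 11.3% without other-lineage barcodes and 11.04% after thinning with gates at 2. For the precursor exhausted comparison (69 higher, 279 lower), a pseudocount of 20 CPM gave 134 lower, no filter 405 higher and 572 lower, a mean of at least 50 CPM 116 lower, leaving out other-lineage barcodes 142 higher, leaving out cells with Mki67 or Top2a 168 lower, Tcf7 at 1 count 168 lower, and hashtag-called cells only 129 higher. For the Tcf7-negative comparison (50 higher, 87 lower), a pseudocount of 20 CPM gave 26 higher, no filter 197 higher and 345 lower, Tcf7 at 1 count 30 higher and 51 lower, and barcodes of 15000 to 60000 counts (chosen after seeing the data) 135 lower. For the Ly49-positive comparison (59 higher, 77 lower), a pseudocount of 20 CPM gave 25 higher and 25 lower, no filter 773 higher and 566 lower, a mean of at least 50 CPM 38 higher and 45 lower, thinning 111 higher, leaving out other-lineage barcodes 167 higher and 311 lower, Tcf7 at 10 counts 91 higher and 129 lower, hashtag-called cells only 186 higher and 311 lower, and 15000 to 60000 counts 111 higher. Leaving out each hashtag gave 62 to 71 higher and 273 to 294 lower, 40 to 51 higher and 76 to 89 lower, and 55 to 114 higher and 78 to 121 lower in the 3 comparisons. Against precursor exhausted cells, leaving out cells with Mki67 or Top2a turned the sign of 40 of the 348 calls, among the listed genes Tpx2 (0.24), Top2a (0.30), Birc5 (0.34), Cdc20 (1.19) and Rrm2 (0.33), a setting that removes cycling cells by construction, and leaving out other-lineage barcodes turned 10, among the listed genes Cd83 (0.23); the cause was not tested. No paired test was made: the labels give no groups with shared replicate numbers, and the values within hashtags, which set the classes of one hashtag side by side, stand without a test because the classes were chosen on the same cells.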
